A study of Saccharomyces cerevisiae with 16 samples.

Results

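Wine yeast cells fed with ammonium in a continuous fermentation were compared with cells of the same strain in the stationary phase of a batch fermentation. The ammonium-fed group held 3 samples and the batch group 4, together 7 of the 15 samples of the series and 8 of its 16 arrays. Both groups were EC1118, a diploid Saccharomyces cerevisiae sold for winemaking, grown on a synthetic grape must. It held glucose at 200 g/L, and amino acids and ammonium that gave yeast 100 mg/L of usable nitrogen. The ammonium-fed cells came from the third tank of a chain of 4, which received resting cells from upstream at a point where the nitrogen of the must was used up, and a steady flow of ammonium added 100 mg/L nitrogen there. They were sampled after a new steady state had set in, at intervals of 24 h. Batch cells grew in stirred fermentors at 28 °C with no addition and were collected in stationary phase at 164 g/L residual glucose. Cells fed with valine (3 samples) and cells of the third tank before any addition (4 samples) are used to show where the ammonium-fed cells differ from them. They also enter the estimate of the spread between samples. A further sample, whose labels name ammonium in some fields and valine in others, was left out. Ammonium sample 3 was measured on 2 arrays, which were averaged.

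Batch and ammonium-fed cells differ in more than nitrogen: in the type of culture, in the time of the run and in the supply itself, and these cannot be told apart in this comparison. The sources used here give neither residual glucose in the ammonium-fed tank nor the temperature of the continuous culture. All ammonium samples were drawn from an ongoing run, and the labels do not say if each batch sample had a fermentor of its own, so p-values measure the spread between samplings, which may be technical.

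In wine fermentation nitrogen usually runs out long before sugar does, and yeast then ferments as resting cells. Starved cells express permeases and enzymes for poor nitrogen sources, the targets of nitrogen catabolite repression, together with stress genes of the transcription factors Msn2 and Msn4. A supply of ammonium, which is joined to 2-oxoglutarate as glutamate and to glutamate as glutamine, represses the first set and allows cells to make amino acids and ribosomes again.

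The groups were well separated. Pairs of ammonium and batch samples differed with an SD of 0.77 to 0.88 on the log2 scale over genes, pairs of ammonium samples with 0.11 to 0.22 and pairs of batch samples with 0.12 to 0.30, while the 2 arrays of ammonium sample 3 differed with 0.17. Array medians were between 9.09 and 9.1 log2 units, so a difference in total mRNA per cell would not be seen, and in bulk RNA fewer cells with a transcript and less transcript per cell cannot be told apart. Slide 1 held 1 ammonium and 3 batch arrays and slide 2 held 3 ammonium and 1 batch arrays, so slide and group were partly mixed. Ammonium sample 2 stood apart from its group, and in 569 of the 816 genes that changed at least 2-fold it was the ammonium sample nearest to batch. Batch sample 1 stood apart from the other batch samples.

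Limma called 4294 of 6248 features (68.7%) at an adjusted p under 0.05, 2075 higher (33.2%) and 2219 lower (35.5%) in ammonium-fed cells. The samples of both groups did not overlap in 65.6% of features, and the median log2 fold change over all features was -0.01. A change of at least 2-fold was seen in 409 called features that were higher (6.55%) and 407 that were lower (6.51%). Since so many features were called, the count of called members in a gene list is read against these shares. A list with a share of calls near 68.7%, split between the directions, is not read as a result about its members.

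The most increased genes belonged to thiamine synthesis and to the cell wall. THI5 makes the pyrimidine part of thiamine. It was at 14.74, 14.97 and 14.91 log2 units in the ammonium-fed samples, against 7.88, 7.56, 7.54 and 7.58 in the batch samples. No ammonium-fed sample came near the batch samples, and the log2 fold change was 7.24 ± 0.49 (SE, limma adjusted p = 6.39e-09). THI11 (7.06), THI12 (7.15) and THI13 (6.89) are near-identical copies of THI5, and their probes may share signal. THI4, which makes the thiazole part of thiamine, was at 15.73, 15.85 and 15.81 in ammonium-fed cells, against 9.32, 8.94, 8.85 and 9.0 in batch cells. Its log2 fold change of 6.77 ± 0.29 (adjusted p = 5.10e-11) may be understated, because its ammonium values lay near the highest value on any array, 15.96.

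Thiamine genes at large followed. Of 18 measured genes of thiamine synthesis and uptake 17 were higher and 0 lower, and the median of their log2 fold changes was 4.00. PHO3, the acid phosphatase that releases thiamine from its phosphate esters outside the cell, was higher by 4.95 ± 0.26, PET18 by 5.29 ± 0.20 and THI22 by 5.92 ± 0.32. THI2, an activator of the pathway, was at 2.40 and THI7, the main plasma membrane thiamine transporter, at 0.64. PDC2, which activates both thiamine and pyruvate decarboxylase genes, was the member without a call, at -0.11. Set against cells of the third tank before addition, 17 of the 18 genes were again higher, with a median difference of 3.78. Against valine-fed cells 8 were higher and 0 lower, with a median difference of 0.44. In these 8 genes the ammonium-fed cells were above every other group, by less over valine than over batch in the list median. Against the batch mean, unfed sample 4 had a list median of 0.57 and the other unfed samples 0.03 to 0.14.

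Genes of cell wall mannoproteins were also among the 12 largest increases. CIS3, a structural mannoprotein, was at 14.25, 14.20 and 14.35 in ammonium-fed cells, against 9.11, 9.18, 8.98 and 9.09 in batch cells. Its groups were tight and far apart, and its log2 fold change was 5.18 ± 0.08 (adjusted p = 2.86e-15). TIR3, an anaerobic wall mannoprotein, was at 14.75, 14.83 and 14.89 in ammonium-fed samples, against 9.63, 9.87, 8.09 and 8.22 in batch samples. DAN1, another anaerobic mannoprotein, was at 13.93, 14.17 and 13.91 in ammonium-fed samples, against 10.14, 10.09, 7.73 and 7.90 in batch samples. In both genes batch samples 1 and 2 lay well above batch samples 3 and 4, yet below every ammonium-fed sample. TIR3 was higher by 5.87 ± 0.35, and by 5.03 within slide 2. DAN1 was higher by 5.04 ± 0.48 (adjusted p = 2.83e-07), and by 3.93 within slide 2. Both slide 2 values rest on batch sample 2 alone for batch. Unfed cells of the third tank lay between the groups, at 11.83 to 12.2 in CIS3, 12.12 to 12.88 in TIR3 and 11.73 to 12.21 in DAN1. Valine-fed cells were at 13.96 to 14.09, 14.06 to 14.46 and 13.46 to 13.79 in the same order.

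HXT5 fell most. This hexose transporter of moderate affinity is typical of slow or halted growth. It was at 6.83, 6.96 and 6.72 in ammonium-fed cells, against 12.75, 12.32, 12.64 and 12.65 in batch cells. The groups were more than 5 log2 units apart, and the log2 fold change was -5.75 ± 0.15 (adjusted p = 4.59e-13). GND2, the stress-induced phosphogluconate dehydrogenase, fell by 4.72 ± 0.11. HBT1 (-4.44), which takes part in cell shape, and the Hsp70 chaperone gene SSA3 (-4.40) were lower too. The desiccation genes SIP18 (-4.34) and GRE1 (-4.15), the proton pump PMA2 (-4.28) and the aquaporin AQY1 (-3.98) belonged to the same 12. The remaining members were PUT4 (-4.28) and DDR2 (-4.26), POT1 (-3.97), the thiolase of beta-oxidation, and SPG4 (-3.97), a stationary phase gene. In the plot of these 24 genes by sample no ammonium-fed point reached a batch point of the same gene, which the choice of the genes required.

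**Figure D1:**
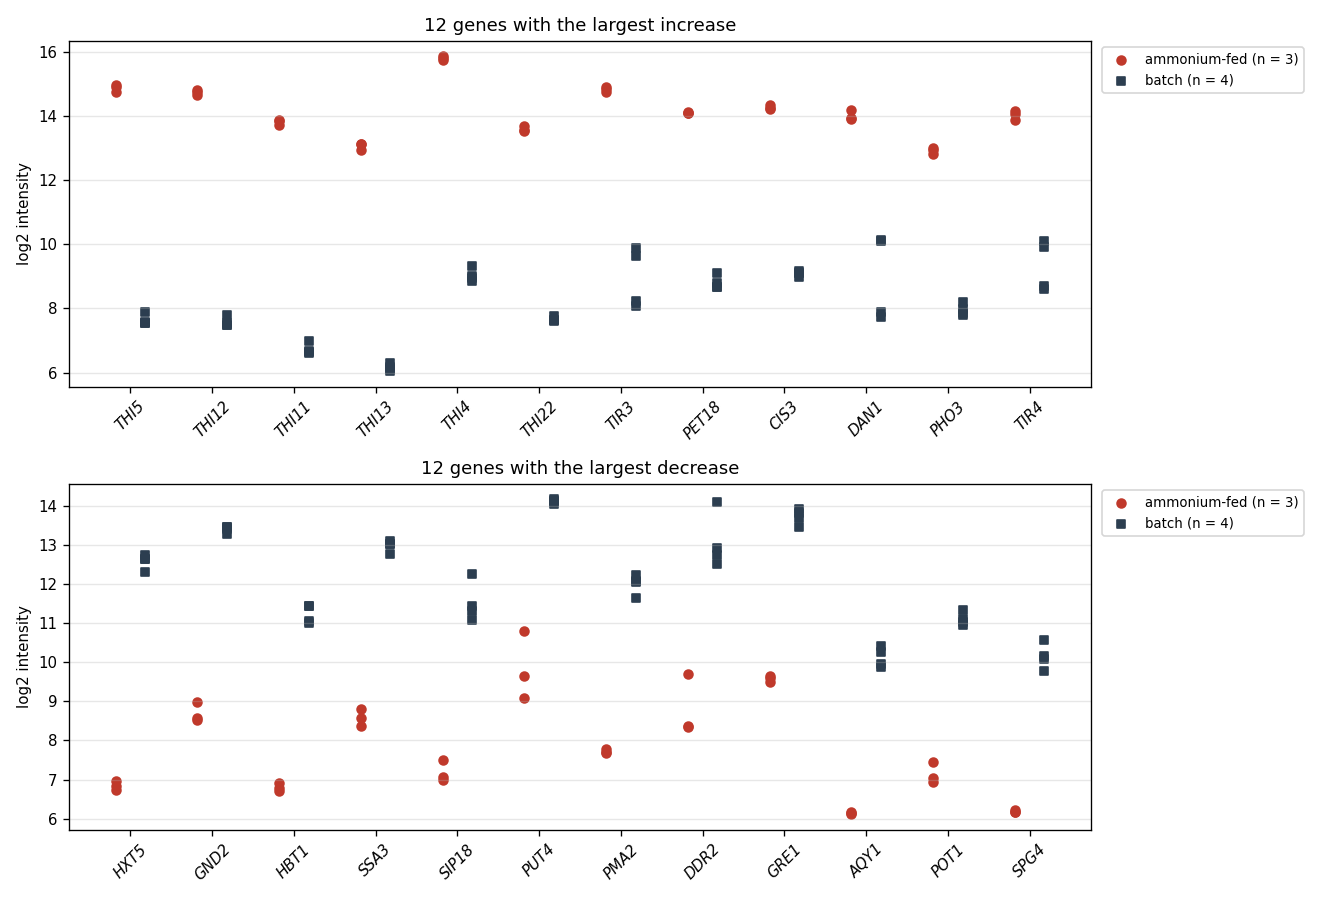
Log2 intensity in each of the 3 ammonium-fed samples (circles, left) and the 4 batch samples (squares, right) for the 12 genes with the largest increase (top) and the 12 with the largest decrease (bottom). Batch samples of DAN1, TIR3 and TIR4 fall into a higher and a lower pair, and ammonium-fed samples of PUT4 and DDR2 are widely spread, with sample 2 nearest to batch.

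Most genes that set ammonium-fed cells apart from batch also set them apart from unfed cells of the same tank. The contrast with unfed cells shares the ammonium samples, and it called 67.6% of features, 32.1% higher and 35.5% lower. Of the 409 features at least 2-fold higher than batch, 396 were also called higher than without addition, 4 were called lower and 9 were not called. Of the 407 at least 2-fold lower, 366 were also called lower, 8 were called higher and 33 were not called. Such calls do not place unfed cells at the batch level. In DSE4, ammonium-fed cells were above batch by 4.64 and unfed cells by 3.74, while in MET17 the values were 3.86 and 0.24. Against valine-fed cells, a contrast that called 16.4% of features (7.59% higher and 8.79% lower), 294 of the 409 and 295 of the 407 were not called. Of the 409, 86 were higher with ammonium than with valine and 29 lower, and of the 407, 96 were lower and 16 higher.

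Nitrogen genes answered in both directions. Of 25 measured genes for the uptake and breakdown of nitrogen sources, known targets of nitrogen catabolite repression, 17 were lower and 5 higher, with a median of -1.06. PUT4, the proline permease, was at 9.66, 10.81 and 9.08 in ammonium-fed cells, against 14.06, 14.14, 14.14 and 14.18 in batch cells. All ammonium samples were below all batch samples, with sample 2 the least so, and the log2 fold change was -4.28 ± 0.26 (adjusted p = 2.09e-09). PUT4 was also lower than with valine, by 1.70 ± 0.28 (adjusted p = 0.00111), with valine-fed cells at 11.56 ± 0.08 (SD, n = 3). UGA4, the permease for gamma-aminobutyrate, was at 8.05, 9.97 and 7.84 in ammonium-fed cells, against 11.83, 11.83, 11.90 and 11.91 in batch cells. It fell by 3.25 ± 0.35 (adjusted p = 9.31e-07), and its log2 fold change was -3.92 without ammonium sample 2. The allantoin permease DAL4 (-2.75 ± 0.26), the urea permease DUR3 (-2.17), and DAL5 (-1.83), which takes up allantoate, were lower too.

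The exceptions in this list were enzymes of arginine and allantoin breakdown and a permease. CAR1, the arginase, was at 10.01, 10.39 and 10.06 with ammonium, against 8.48, 8.64, 8.22 and 8.46 in batch. It rose by 1.70 ± 0.12 over batch (adjusted p = 1.63e-08), while it was not called against the tank before addition, at -0.08 (95% interval -0.35 to 0.19). CAR2, the ornithine aminotransferase, was higher than batch by 0.47 and also uncalled against no addition, at -0.07 (-0.26 to 0.13). DAL3, the ureidoglycolate lyase, was higher than batch by 1.07 ± 0.10 and at 0.17 (-0.03 to 0.38) against no addition. DAL7, a malate synthase of allantoin use, was higher than batch by 0.52 and fell by 0.65 ± 0.13 relative to no addition. MEP3, the low-affinity ammonium permease, was higher by 0.51 ± 0.09. MEP2, the high-affinity ammonium permease, was at 13.99, 13.74 and 13.67 with ammonium, against 14.47, 14.52, 14.43 and 14.41 in batch, a fall of 0.66 ± 0.07.

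GAP1, the general amino acid permease, was at 13.81, 14.45 and 13.80 in ammonium-fed cells, against 14.94, 14.97, 14.97 and 14.99 in batch cells. Every ammonium-fed sample was below every batch sample, with a log2 fold change of -0.95 ± 0.13 (adjusted p = 1.07e-05). Of 20 amino acid permeases 12 were lower and 3 higher, with a median of -0.64. The higher ones were MUP3 (1.44 ± 0.14), a low-affinity methionine permease, MMP1 (1.32 ± 0.15), which takes up S-methylmethionine, and the histidine permease HIP1 (0.57 ± 0.10). The high-affinity methionine permease MUP1 was at -1.12. Relative to the tank before addition the permeases split evenly, with 7 higher and 7 lower. Among 18 nitrogen regulators 9 were lower and 1 higher, a share of 55.6%. DAL80, a repressor that is itself repressed by good nitrogen sources, fell by 0.74 ± 0.11, and PUT3, the activator of proline use, rose by 0.72 ± 0.07.

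Assimilation of ammonium into glutamate changed in its isoenzymes. GDH1, the main NADPH glutamate dehydrogenase, which makes glutamate, was at 12.52, 12.07 and 12.55 in ammonium-fed cells, against 9.76, 9.69, 9.94 and 9.88 in batch cells. It rose by 2.56 ± 0.10 (adjusted p = 2.62e-11). Its isoenzyme GDH3 was at 8.17, 8.39 and 8.15 with ammonium, against 10.77, 10.52, 10.63 and 10.60 in batch, and fell by 2.39 ± 0.07. GDH2, which breaks glutamate down, fell by 1.98 ± 0.09. In these 3 genes the groups did not overlap. The glutamine synthetase GLN1 was at 14.94, 14.66 and 14.75 with ammonium, against 14.75, 15.10, 15.22 and 15.18 in batch. Its groups overlapped, and its log2 fold change of -0.28 ± 0.10 was a weak call (adjusted p = 0.0274) that was lost without ammonium sample 2 (0.116) or 3 (0.0777) and without batch sample 2 (0.0574), 3 (0.0777) or 4 (0.0732). It was also lost with slide as a block (0.0758). ALT1, an alanine transaminase, was higher by 2.36 ± 0.08 and ASN2, an asparagine synthetase, by 1.32 ± 0.08.

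Ammonium and valine, which bring the same amount of nitrogen, differed in several nitrogen genes. GDH1 was at 12.38 ± 0.27 with ammonium and 11.23 ± 0.10 with valine (SD, n = 3 each), a difference of 1.15 ± 0.11 (limma adjusted p = 1.29e-05). GDH2 was at 10.52 ± 0.02 with ammonium and 12.83 ± 0.22 with valine (SD, n = 3 each), a difference of -2.31 ± 0.09 (limma adjusted p = 1.37e-09). GAP1 was lower with ammonium than with valine by 0.62 ± 0.14 (adjusted p = 0.00758). GDH3 at -0.01, MEP2 at 0.05 and CPS1, a vacuolar carboxypeptidase, at 0.00 were not called between the supplements.

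**Figure D2:**
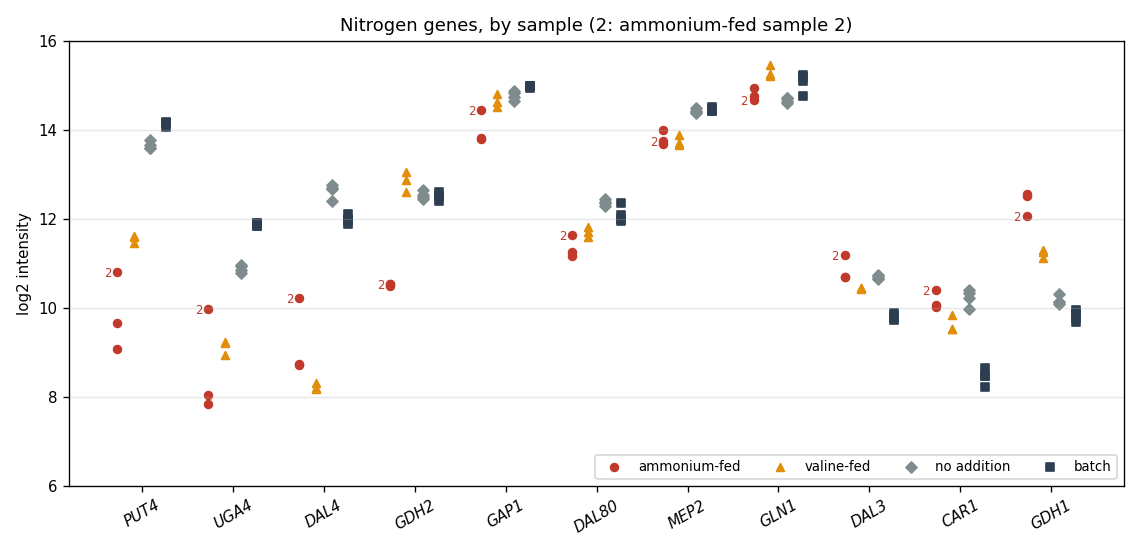
Log2 intensity of 11 nitrogen genes in each sample, with ammonium-fed (circles), valine-fed (triangles), unfed (diamonds) and batch (squares) samples side by side and ammonium-fed sample 2 numbered. In PUT4, UGA4 and DAL4 sample 2 lies between the other ammonium-fed samples and batch, and GDH2 is low in the ammonium-fed samples alone.

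Amino acid synthesis was higher along nearly every branch. Of 25 genes of sulfate assimilation and of methionine and cysteine synthesis 24 were higher and 0 lower, with a median of 1.90. MET17, which joins sulfide to O-acetylhomoserine, was at 14.23, 13.88 and 14.31 in ammonium-fed cells, against 10.11, 10.16, 10.33 and 10.50 in batch cells. Its groups were more than 3 log2 units apart, and it rose by 3.86 ± 0.18 (adjusted p = 1.24e-10). MET14 (3.79 ± 0.20) and MET3 (3.72 ± 0.19), which activate sulfate, and the sulfate permease SUL2 (3.50) behaved alike, whereas the other sulfate permease SUL1 was higher by only 0.24. The member without a call was STR2, at 0.07.

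Lysine genes were higher in 8 of 9 cases with a median of 1.28, led by LYS9 (2.56 ± 0.08) and LYS21 (2.03 ± 0.10). LYS5, which activates an enzyme of the pathway, was the lysine gene that fell (-0.39 ± 0.06), a call that was lost within slide 1 (adjusted p = 0.133). Arginine genes were higher in 6 of 7 cases with a median of 1.08, ARG4 (2.31 ± 0.09) in front. CPA1, the small subunit of carbamoyl phosphate synthetase, was at 11.69, 11.39 and 11.98 with ammonium, against 12.88, 12.83, 12.67 and 12.70 in batch, and fell by 1.08 ± 0.12. Among 20 aromatic and histidine genes 16 were higher and 1, TRP1, was lower, and the median was 1.08. HIS4 (2.35 ± 0.10), ARO8 (2.24 ± 0.14) and ARO1 (1.95 ± 0.06) led them. The TRP1 change of -0.36 ± 0.09 came to -0.07 within slide 1.

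Among 12 branched-chain genes 10 were higher and 0 lower, and the median was 0.69. BAT1, the mitochondrial branched-chain transaminase, was at 14.02, 13.89 and 14.11 in ammonium-fed cells, against 11.88, 11.65, 11.78 and 11.84 in batch cells, and rose by 2.22 ± 0.07. LEU9 (2.22 ± 0.15) and ILV3 (1.92 ± 0.10) were higher as well. ILV5 overlapped between the groups, at 13, 12.19 and 13 with ammonium, against 11.41, 12.07, 12.52 and 12.27 in batch. Its call at 0.66 ± 0.24 (adjusted p = 0.0216) was lost without ammonium sample 1 (0.0992) or 3 (0.0999) or batch sample 1 (0.0525). Serine, glycine, threonine and proline genes were higher in 10 of 12 cases with a median of 0.99, led by SER33 (2.50 ± 0.12) and SER3 (2.42 ± 0.15). GLY1, the threonine aldolase, was the one that fell, by 1.02 ± 0.10, although it was higher than without addition by 0.63 ± 0.10.

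Precursors and cofactors shared this direction. Purine synthesis was higher in 10 of 13 genes and lower in 2, with a median of 0.91. Its last bifunctional enzyme has 2 forms, and ADE17 rose by 2.36 ± 0.12 while ADE16 fell by 0.45 ± 0.07. GUA1, which makes GMP, was the other lower member (-0.80 ± 0.08). Of 20 genes for vitamin B6, biotin and NAD 18 were higher and 2 lower, with a median of 1.15. SNZ3, for vitamin B6, was at 11.06, 10.86 and 11.15 with ammonium, against 7.29, 7.38, 7.49 and 7.47 in batch, a rise of 3.61 ± 0.11. SNZ2, a near-identical copy, rose by 3.39 ± 0.10, and both were higher than with valine by 1.62. BIO4 of biotin synthesis rose by 2.97 ± 0.13, and BNA2, the first enzyme of NAD synthesis out of tryptophan, fell by 1.29 ± 0.08. Pyrimidine genes did not share it to the same degree, with 5 of 9 higher and 2 lower and a median of 0.24 that came to 0.15 without batch sample 1.

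**Figure D3:**
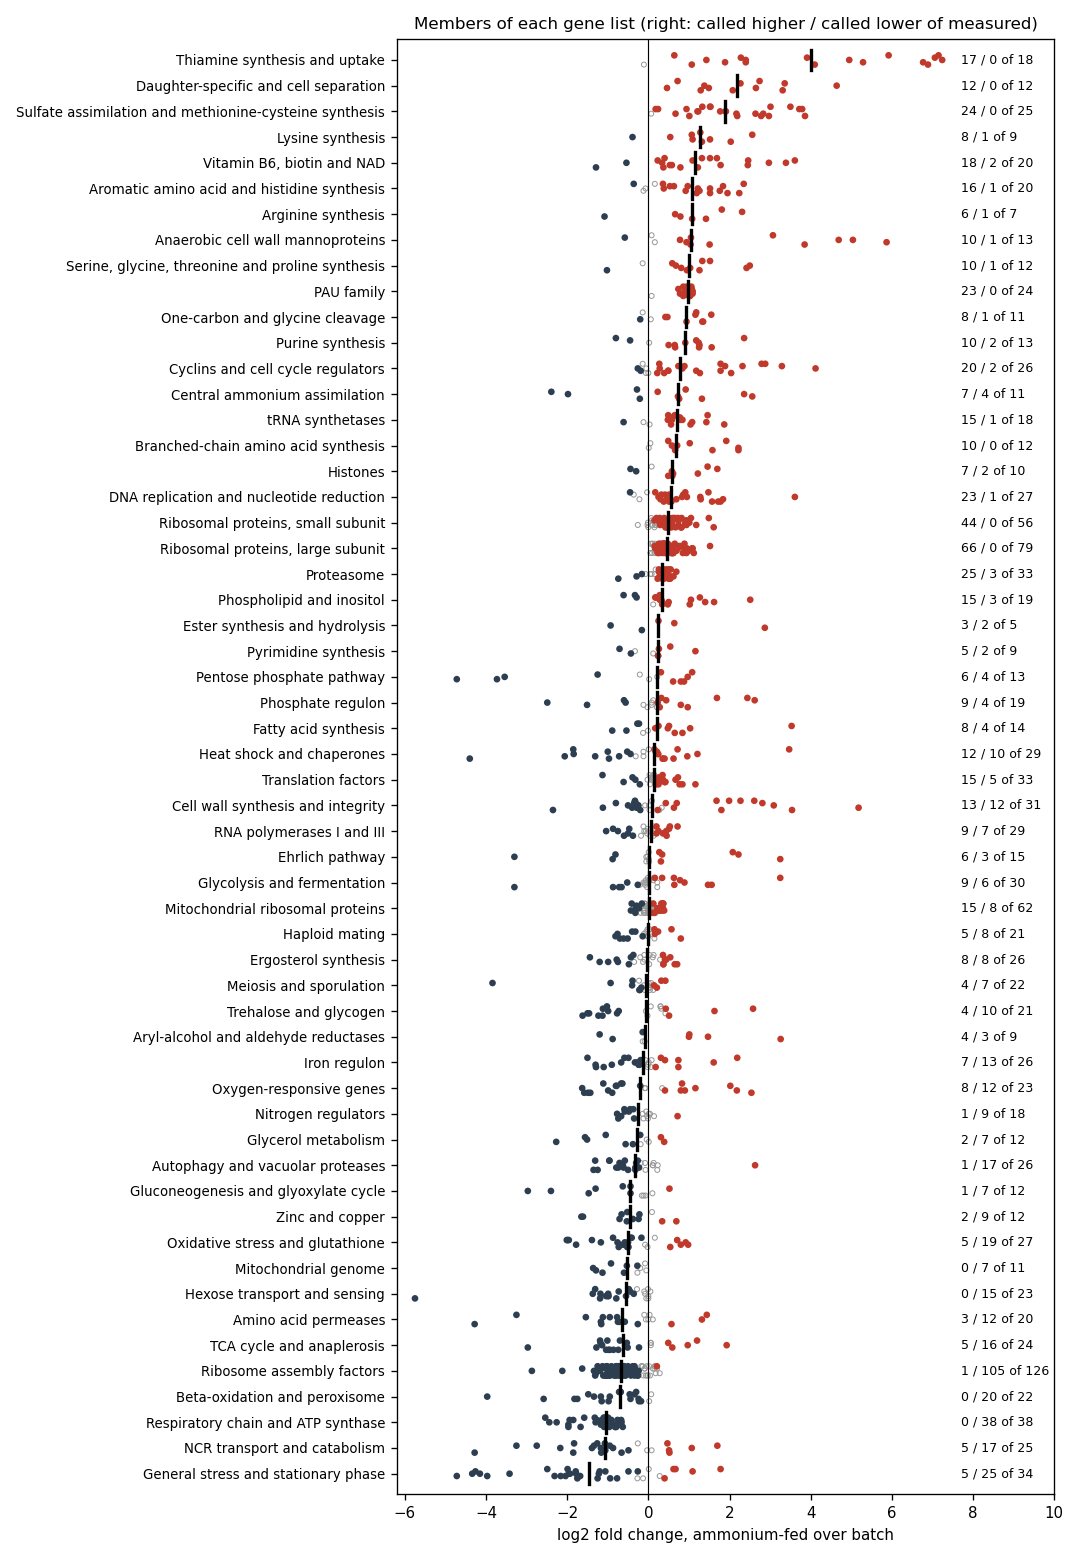
Log2 fold change, ammonium-fed over batch, of each measured member of 56 gene lists, sorted by list median (black bar), with called members filled (red higher, dark lower) and others open. Thiamine, daughter-specific and sulfur genes stand at the top, with medians of 4.00, 2.17 and 1.90, and general stress genes at the bottom, with -1.46.

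Protein synthesis went in opposite directions in its parts. Of 56 measured small subunit ribosomal protein genes 44 were higher and 0 lower with a median of 0.48, and of 79 large subunit genes 66 were higher and 0 lower with a median of 0.47. Their list medians by sample, taken against the batch mean, were 0.57, 0.34 and 0.53 for the small subunit in ammonium-fed cells, against -0.03, 0.00, 0.07 and -0.03 in batch cells. ASC1, part of the small subunit, rose by 1.61 ± 0.08, RPS9A by 1.49 ± 0.11 and RPL7A by 1.52 ± 0.15. Many ribosomal protein genes come in near-identical pairs that probes may not separate. With arrays centred on genes outside the ribosome lists the medians were 0.46 and 0.44.

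Ribosome assembly factors, the proteins that process rRNA and assemble subunits, were lower. Of 126 measured factors 105 were lower and 1 higher, with a median of -0.67. The list median was -0.63, -0.74 and -0.66 in the ammonium-fed samples, against -0.23, 0.02, 0.18 and 0.05 in the batch samples. Batch sample 1 lay below the other batch samples but above all ammonium samples. DBP2, an RNA helicase, was at 9.14, 9.27 and 8.99 with ammonium, against 11.51, 12.11, 12.27 and 12.12 in batch, and fell by 2.87 ± 0.15 (adjusted p = 4.55e-10). The nucleolar protein NSR1 fell by 2.12 ± 0.15 and the subunit export factor NOG2 by 1.63 ± 0.18. The member called higher was EMG1, an rRNA methyltransferase, at 0.21 ± 0.08 (adjusted p = 0.0222), a call lost without ammonium sample 1 (0.0740) or 3 (0.109) and with slide as a block (0.0893).

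The other continuous conditions place these lists. Ammonium-fed cells exceeded unfed cells of the same tank in 55 of 56 small subunit genes and 78 of 79 large subunit genes, with median differences of 1.16 and 1.07. For assembly factors they exceeded unfed cells in 77 of 126 genes and were below them in 7, with a median difference of 0.34. Unfed cells stood at -0.62 and -0.59 for the ribosomal proteins and at -1.02 for assembly factors relative to batch. In list medians, ammonium-fed cells were above both unfed and batch cells in ribosomal proteins, and between them in assembly factors. Compared with valine, 16 small subunit and 29 large subunit genes were higher with ammonium and 0 lower, with median differences of 0.20 and 0.21, and assembly factors had 9 higher and 5 lower.

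Of 18 cytosolic tRNA synthetases 15 were higher and 1 lower, with a median of 0.70. TYS1, for tyrosine, rose by 1.87 ± 0.08 and FRS1, for phenylalanine, by 1.46 ± 0.07, while KRS1, for lysine, fell by 0.61 ± 0.08. RNA polymerases I and III had 9 of 29 members higher and 7 lower, a share of 55.2% and a median of 0.06. Their median in unfed cells was -0.54 relative to batch, and 23 of the 29 were higher with ammonium than without addition. Translation factors had 15 of 33 members higher and 5 lower (60.6% called) with a median of 0.15. Mitochondrial ribosomal proteins showed little change, with 15 of 62 higher and 8 lower (37.1%) and a range of -0.43 to 0.39.

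**Figure D4:**
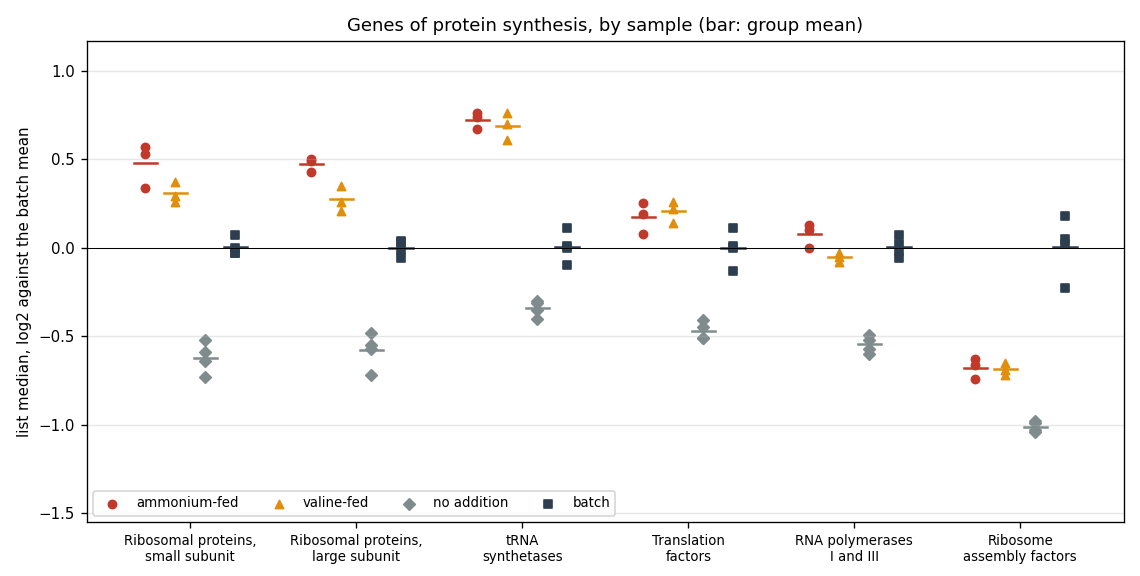
Median log2 value of 6 gene lists in each sample relative to the batch mean (y axis), for ammonium-fed, valine-fed, unfed and batch samples (left to right in each list), with bars for group means. Ammonium-fed samples lie above batch for ribosomal proteins and tRNA synthetases and below batch for assembly factors, where unfed samples are lowest.

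Respiration genes were lower throughout their list. All 38 genes of the respiratory chain, the ATP synthase and their activators were called lower, with a median of -1.05 and a range of -2.54 to -0.63. COX5A, a subunit of cytochrome oxidase, was at 10.56, 10.59 and 10.43 in ammonium-fed cells, against 12.73, 12.96, 13.10 and 13.09 in batch cells. It fell by 2.44 ± 0.08 (adjusted p = 3.26e-12). NDE2, an external NADH dehydrogenase, fell by 2.54 ± 0.10 and HAP4, the activating subunit of the factor that drives respiratory genes, by 2.26 ± 0.13. CYC1, cytochrome c, fell by 1.94 ± 0.18. All 38 were also lower than without addition, with a median of -1.18, whereas against valine 1 was higher and 2 were lower. Of 11 transcripts of the mitochondrial genome 7 were lower and 0 higher (63.6% called). Their median of -0.53 was -0.24 within slide 1, -0.80 within slide 2 and -1.03 with the dimmest 0.25 of genes left out. COX3 (-1.36 ± 0.17) and COX2 (-1.29 ± 0.19) were among them.

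In the TCA cycle 16 of 24 genes were lower and 5 higher, and the median was -0.64. MDH2, the cytosolic malate dehydrogenase, was at 9.03, 9.24 and 8.89 with ammonium, against 12.14, 11.91, 11.98 and 12.07 in batch, a fall of 2.97 ± 0.08. SDH2 of succinate dehydrogenase fell by 1.28 ± 0.07 and the fumarase FUM1 by 1.19 ± 0.09. The higher members were the citrate synthases CIT2 and CIT1 (0.59 ± 0.08), the isocitrate dehydrogenase IDP1 (0.97 ± 0.17) and the pyruvate carboxylases PYC2 (1.20 ± 0.10) and PYC1 (0.49 ± 0.06). Isoenzymes of IDP1 and MDH2 were lower: IDP2 (-0.53 ± 0.06), IDP3 (-1.01 ± 0.06), MDH1 (-1.04 ± 0.11) and MDH3 (-0.57 ± 0.07). CIT2, the peroxisomal enzyme, was at 12.38, 10.47 and 12.56 with ammonium, against 9.94, 9.80, 9.88 and 9.89 in batch. Sample 2 had far less of it than the other ammonium samples, and the log2 fold change of 1.93 ± 0.34 was 2.59 without that sample.

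Among 22 beta-oxidation and peroxisome genes 20 were lower and 0 higher, and the median was -0.71. POT1 fell by 3.97 ± 0.11, the carnitine carrier CRC1 by 2.58 ± 0.07 and FOX2 by 1.82 ± 0.08. Of 12 genes of gluconeogenesis and the glyoxylate cycle 66.7% were called, with 7 lower, among them the activator CAT8 (-2.40 ± 0.10), and 1, DAL7, higher. Their median of -0.44 was -1.39 with the dimmest 0.25 of genes left out.

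Stress genes fell as a group but not without exception. Of 34 general stress and stationary phase genes 25 were lower and 5 higher, with a median of -1.46, the lowest of all lists. The list median was -1.65, -1.27 and -1.72 in the ammonium-fed samples, against 0.10, -0.07, -0.06 and 0.04 in the batch samples. DDR2, a multistress response gene, was at 8.38, 9.70 and 8.35 with ammonium, against 14.11, 12.92, 12.53 and 12.75 in batch, and fell by 4.26 ± 0.39. HSP12, a membrane-stabilising stress protein, was at 11.62, 11.79 and 11.60 with ammonium, against 13.65, 13.19, 13.54 and 13.64 in batch, and fell by 1.84 ± 0.09. In HSP26, a small heat shock protein, the groups overlapped, at 13.05, 13.57 and 13.08 with ammonium, against 14.20, 13.67, 13.52 and 13.65 in batch. Its log2 fold change was -0.52 ± 0.16. The higher members were SNZ1 (1.78) and SNO1 (1.09) of vitamin B6 synthesis, the aldose reductase GRE3 (0.62), the carbonic anhydrase NCE103 (0.40) and STF2 (0.67). The STF2 call was lost without ammonium sample 2 (adjusted p = 0.0844), and those of GRE3 and NCE103 within slide 1 (0.120 and 0.421).

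Among 27 oxidative stress genes 19 were lower and 5 higher, and the median was -0.51. The glutathione transferase GTT1 (-2.01 ± 0.08), the mitochondrial thioredoxin TRX3 (-1.99 ± 0.08) and the catalase CTT1 (-1.96 ± 0.13) fell, while the glutathione synthesis genes GSH1 (0.98 ± 0.12) and GSH2 (0.92 ± 0.05) rose. Heat shock genes had 12 of 29 members higher and 10 lower (75.9% called), with a median of 0.15. CPR6 (1.21 ± 0.05) and BTN2 (0.96 ± 0.06) were higher, whereas SSA4 fell by 1.31 ± 0.10.

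Reserve carbohydrate genes had no common direction relative to batch. Of 21 trehalose and glycogen genes 10 were lower and 4 higher (66.7% called), with a median of -0.06. The list median was -0.43, 0.06 and -0.37 in the ammonium-fed samples, against 0.00, -0.02, -0.06 and 0.03 in the batch samples, so ammonium sample 2 alone lay with or above batch. PIG2 (-1.62 ± 0.14), GLG2 (-1.50 ± 0.07) and GAC1 (-1.46 ± 0.13) of glycogen synthesis were lower. GSY1, a glycogen synthase, was higher by 2.58 ± 0.14 and PGM1 by 1.63 ± 0.08. TSL1 of trehalose synthesis was not called, at 0.30 ± 0.17 (95% interval -0.07 to 0.67, adjusted p = 0.133), with 10.54, 11.40 and 10.56 in ammonium-fed cells, against 10.24, 10.60, 10.62 and 10.66 in batch cells. The value rested on ammonium sample 2: it was 0.02 without that sample (adjusted p = 0.893) and 0.45 without ammonium sample 1 (0.0465). Relative to no addition 18 of the 21 genes were lower, and the median was -0.97.

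Hexose transport and glucose sensing was lower in 15 of 23 genes and higher in 0 (65.2% called). The median was -0.55, or -1.0 with the dimmest 0.25 of genes left out. Besides HXT5, the glucose-repression factor MIG3 (-1.37 ± 0.10) and the transporters HXT4 (-1.31 ± 0.17), HXT6 (-1.04 ± 0.18) and HXT1 (-0.98 ± 0.07) fell. HXT3, a low-affinity glucose transporter, was at 15.26, 15.08 and 15.10 with ammonium, against 15.67, 15.63, 15.43 and 15.65 in batch, a fall of 0.45 ± 0.06 whose call was lost within slide 1 (adjusted p = 0.0625). The 8 members that were not called were HXT8, HXT9, HXT10, HXT11, HXT13, HXT14, HXT16 and GAL2.

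Glycolysis and fermentation genes as a list did not stand apart, with 9 of 30 higher, 6 lower (50% called) and a median of 0.01. PDC1, the main pyruvate decarboxylase, was at 15.74, 15.49 and 15.54 with ammonium, against 15.75, 15.68, 15.44 and 15.41 in batch. It differed by 0.02 (95% interval -0.16 to 0.20, adjusted p = 0.86), close to the top of the measured range. HXK1, a hexokinase, was higher by 1.47 ± 0.13, with the other glucose-phosphorylating enzymes HXK2 (0.89) and GLK1 (0.78). Glycerol metabolism was lower in 7 of 12 genes and higher in 2, with both glycerol phosphatases down, GPP1 by 2.27 ± 0.08 and GPP2 by 1.51 ± 0.19. Its median of -0.29 was -0.54 within slide 1 and -0.56 with the dimmest 0.25 of genes left out.

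Genes of division were higher. Of 26 cyclins and cell cycle regulators 20 were higher and 2 lower, with a median of 0.79, or 0.44 with the dimmest 0.25 of genes left out. PCL1, a G1 cyclin of the Pho85 kinase, was at 10.57, 9.85 and 10.52 with ammonium, against 6.13, 6.15, 6.29 and 6.22 in batch, and rose by 4.12 ± 0.13. CLB1, a mitotic cyclin, rose by 3.29 ± 0.08 and the G1 cyclin CLN1 by 2.88 ± 0.12. The lower ones were CDH1, which helps destroy mitotic cyclins (-0.26 ± 0.05), and the upstream G1 cyclin CLN3 (-0.19 ± 0.07), the call of which was lost without ammonium sample 1 (adjusted p = 0.157) or batch sample 2 (0.0663) or 4 (0.0517). Among 27 DNA replication genes 23 were higher and 1, CTF4, was lower (-0.45 ± 0.06), and the median was 0.57. RNR1, the large subunit of ribonucleotide reductase, was at 13.01, 12.94 and 13.11 with ammonium, against 9.48, 9.37, 9.38 and 9.40 in batch, and rose by 3.61 ± 0.08 (adjusted p = 1.30e-13). Of 10 histone genes 7 were higher and 2 lower.

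All 12 daughter-specific and cell separation genes, which act when a daughter cell leaves its mother, were higher, with a median of 2.17. DSE4, a glucanase, was at 11.26, 11.39 and 11.26 with ammonium, against 6.86, 6.76, 6.49 and 6.55 in batch, and rose by 4.64 ± 0.08. EGT2 rose by 3.36 ± 0.09 and DSE2 by 3.31 ± 0.07. Unfed cells of the third tank stood at a median of 1.56 above batch in these genes. Ammonium-fed cells were above unfed cells in 10 of the 12 genes, with a median difference of 0.52, and above valine-fed cells in 1, DSE4 (0.33 ± 0.09, adjusted p = 0.0205). Genes of wall synthesis and integrity split, with 13 of 31 higher and 12 lower. After CIS3, UTR2 (3.54 ± 0.10) and CRH1 (3.09 ± 0.12), which link chitin to glucan, were the highest.

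Genes that respond to oxygen did not move one way. The PAU family of wall mannoproteins, whose members are so alike that probes share signal, was higher in 23 of 24 genes and lower in 0, within a narrow range of 0.08 to 1.09. Among 13 anaerobic mannoproteins 10 were higher and 1, TIP1, was lower (-0.58 ± 0.10), and the median was 1.05. Relative to batch, the PAU median was 0.98 with ammonium and 0.48 in unfed cells. For the anaerobic mannoproteins it was 0.47 in unfed cells. In a list of 23 other oxygen-responsive genes, 8 were higher and 12 lower. ANB1, the anaerobic form of the translation factor eIF5A, rose by 1.16 ± 0.11, and AAC3, the anaerobic ADP/ATP carrier, by 0.80 ± 0.12. ROX1, a repressor of anaerobic genes, was at 10.83, 10.80 and 10.31 with ammonium, against 11.74, 12.63, 12.51 and 12.23 in batch, and fell by 1.63 ± 0.18. OLE1, the fatty acid desaturase, fell by 0.89 ± 0.06 and CYC7, a cytochrome c typical of low oxygen, by 1.58 ± 0.13. The sources used here give no oxygen values for either culture.

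Lipid genes differed gene by gene. Among 19 phospholipid and inositol genes 15 were higher and 3 lower, with INO1, the inositol phosphate synthase, up by 2.51 ± 0.08, EPT1 by 1.62 ± 0.05 and CHO2 by 1.40 ± 0.17. The activators of these genes, INO2 (-0.29 ± 0.07) and INO4 (-0.33 ± 0.06), and the phosphatidate phosphatase PAH1 (-0.61 ± 0.08) were the lower ones, and the calls of INO2 and INO4 were lost within slide 1 (adjusted p = 0.147 and 0.149). ELO3, which extends fatty acids to very long chains, was at 11.25, 11.03 and 11.39 with ammonium, against 7.64, 7.67, 7.77 and 7.71 in batch, and rose by 3.53 ± 0.11. Ergosterol genes had 8 of 26 members higher and 8 lower (61.5% called) with a median of -0.03, and are not read as a result.

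Protein turnover was divided between the proteasome and the vacuole. Among 33 proteasome genes 25 were higher and 3 lower, but by little, the median being 0.34 and PRE8 in front at 0.69 ± 0.06. RPN4, the transcription factor that drives them, was among the lower ones, at 10.72, 10.70 and 10.66 with ammonium, against 11.67, 11.50, 11.19 and 11.36 in batch, a fall of 0.74 ± 0.09. Relative to unfed cells 16 proteasome genes were lower with ammonium and 0 higher. Autophagy and vacuolar protease genes were lower in 17 of 26 cases (median -0.32), among them ATG8 (-1.35 ± 0.11), ATG11 (-1.25 ± 0.04) and the protease B gene PRB1 (-1.31 ± 0.12). CPS1, a vacuolar carboxypeptidase, was the exception, at 13.87, 13.74 and 13.90 with ammonium, against 10.64, 11.21, 11.42 and 11.55 in batch, and rose by 2.63 ± 0.16.

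Genes of phosphate and metal uptake showed single large changes. The phosphate transporter PHO84 rose by 2.44 ± 0.14 and the secreted phosphatases PHO11 (2.62 ± 0.08) and PHO12 (1.69 ± 0.09), which are near-identical copies, rose too, while PHM8 (-2.49 ± 0.09) and PHM6 (-1.51 ± 0.11) fell. In the list of 19 phosphate genes 9 were higher and 4 lower (68.4% called). Iron genes were lower in 13 of 26 cases and higher in 7, with the high-affinity permease FTR1 at -1.50 ± 0.10. Zinc and copper genes were lower in 9 of 12 cases and higher in 2, led by ZPS1 (-1.65 ± 0.06) and the copper transporter CTR3 (-1.61 ± 0.07).

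Aroma genes differed in a few members. Of 15 genes of the Ehrlich pathway, which turns amino acids into higher alcohols, 6 were higher and 3 lower (60% called), with a median of 0.01. ADH5 (2.08 ± 0.09) was higher, and PDR12, an exporter of organic acids, was lower (-0.81 ± 0.11). PDR12 was also lower than with valine, by 1.76. Of the acetate ester synthases, ATF2 was at 9.43, 9.11 and 9.47 with ammonium, against 6.29, 6.46, 6.68 and 6.42 in batch, and rose by 2.87 ± 0.10. ATF1 overlapped between the groups, at 9.87, 9.91 and 9.99 with ammonium, against 10.06, 10.11, 10.16 and 9.99 in batch. Its call at -0.16 ± 0.06 (adjusted p = 0.0268) was lost without ammonium sample 1 (0.106) or 2 (0.0636) or batch sample 2 (0.0584) or 3 (0.0742). EEB1, an ethyl ester synthase, fell by 0.93 ± 0.08. Of 9 measured aryl-alcohol and aldehyde reductases 4 were higher and 3 lower (77.8% called), with a median of -0.09. Among them AAD14, an aryl-alcohol dehydrogenase, rose by 3.26 ± 0.11, and ADH6 was lower, at -0.88 ± 0.16.

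Isoenzymes of a family differed in direction in some cases. Of 50 families of enzymes or other proteins encoded by 2 or more measured genes, a list drawn up after the values had been seen, 17 held called members in both directions, 20 had calls only higher, 12 only lower and 1 had none. Since 33.2% of all features were called higher and 35.5% lower, nothing is read from the number of families with both. In 6 of the 17 a member was at least 2-fold higher and another at least 2-fold lower. Among cytosolic Hsp70 chaperones, SSA2 was at 11.50, 11.27 and 11.60 in ammonium-fed cells, against 7.71, 7.98, 8.12 and 8.12 in batch cells. SSA3 was at 8.36, 8.81 and 8.58 in ammonium-fed cells, against 13.10, 12.78, 13.04 and 13.03 in batch cells. The first rose by 3.47 ± 0.13 and the second fell by 4.40 ± 0.14, while SSA1 was not called, at -0.12 (95% interval -0.34 to 0.09), but was called at -0.28 without ammonium sample 2.

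Among pyruvate decarboxylases, PDC5 was at 14.97, 15.23 and 15.01 with ammonium, against 11.99, 11.87, 11.82 and 11.60 in batch. PDC6 was at 10.28, 10.66 and 10.33 with ammonium, against 13.87, 13.59, 13.76 and 13.68 in batch. The changes were 3.25 ± 0.25 for PDC5 and -3.30 ± 0.10 for PDC6, and the value of PDC1, which was not called, is given above. In the pentose phosphate pathway each of 4 steps had its main gene higher and its second gene lower. These were GND1 (0.88 ± 0.09) and GND2 (-4.72 ± 0.11), TKL1 (0.80 ± 0.10) and TKL2 (-3.73 ± 0.15), TAL1 (1.08 ± 0.13) and NQM1 (-3.54 ± 0.14), and SOL3 (0.97 ± 0.06) and SOL4 (-1.25 ± 0.20). The plasma membrane proton pump followed the same pattern, with PMA1 at 0.86 ± 0.16 and PMA2 at -4.28 ± 0.12. So did the glutamate dehydrogenases GDH1 and GDH3 and, with the second gene higher, the iron-sulfur scaffolds ISU2 (1.61 ± 0.10) and ISU1 (-1.30 ± 0.06).

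**Figure D5:**
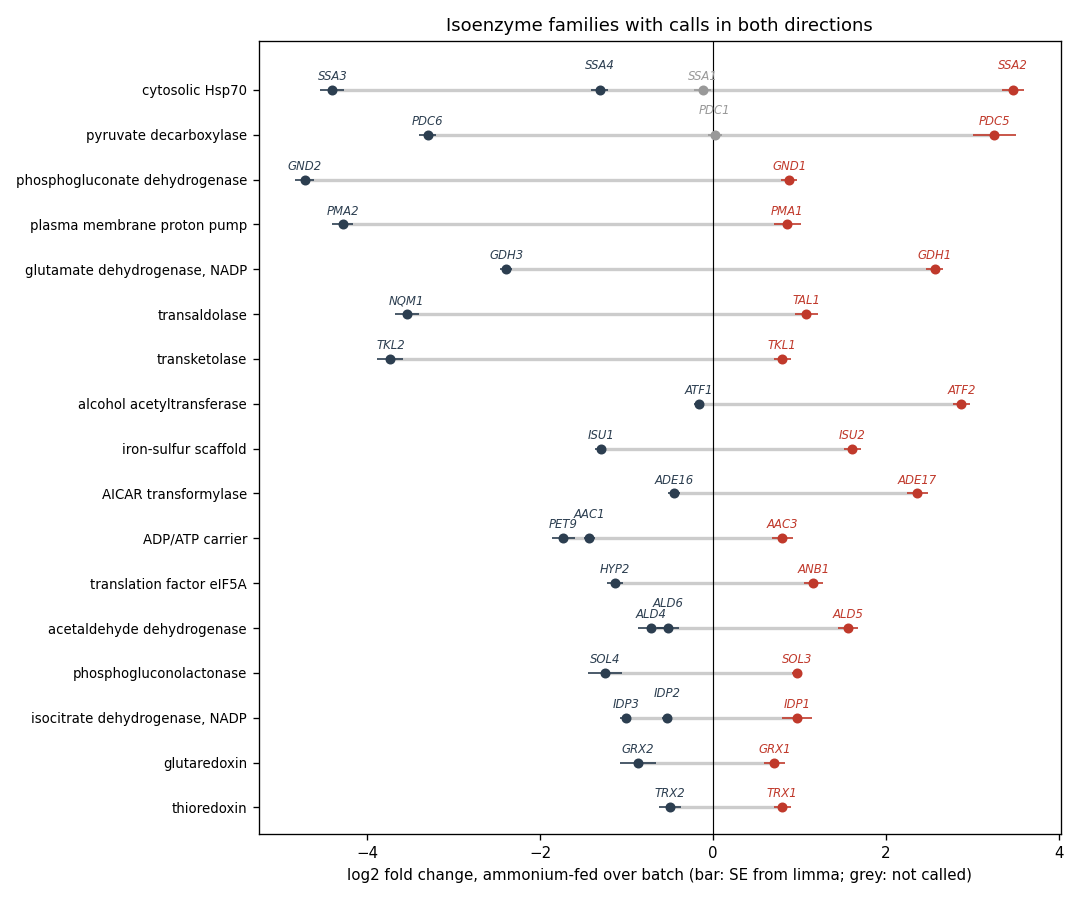
Log2 fold change, ammonium-fed over batch (x axis, bars are limma SE), for the members of the 17 isoenzyme families with calls in both directions, 1 row per family. The widest gaps are those of the cytosolic Hsp70 chaperones and the pyruvate decarboxylases, where SSA1 and PDC1 (grey) were not called.

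A small set of genes differed from batch by at least 2-fold without a call in the same direction against unfed cells of the tank. On the higher side there were 13 features, 10 of them with a standard name or symbol, and on the lower side 41. CAR1, DAL3, HXK1 and PHS1, a dehydratase of fatty acid elongation, were among the 13. HXK1 was at 14.10 ± 0.26 with ammonium (SD, n = 3), 14.09 ± 0.10 without addition (SD, n = 4) and 12.63 ± 0.25 in batch (SD, n = 4). CWP1, a wall mannoprotein, was higher than batch by 1.51 yet lower than without addition by 1.14. Among the 41, 16 were ribosome assembly factors, a list that makes up 126 of the 6248 features. In that list the median relative to batch was -1.02 in unfed cells and -0.67 with ammonium. DBP2 was at 9.13 ± 0.14 with ammonium (SD, n = 3), 8.65 ± 0.19 without addition (SD, n = 4) and 12 ± 0.34 in batch (SD, n = 4). HXT4 differed from no addition by 0.05 (95% interval -0.32 to 0.42) and GPP2 by -0.20 (-0.62 to 0.22).

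As a check of cell state, genes of haploid mating and of meiosis and sporulation were counted. In the mating list 5 of 21 were higher and 8 lower (61.9% called) with a range of -0.81 to 0.80, and in the meiosis list 4 of 22 were higher and 7 lower (50%). Pheromone genes were near the bottom of the scale, MF(ALPHA)1 at 6.05, 6.16 and 5.99 with ammonium, against 5.81, 5.80, 5.86 and 5.84 in batch, where the array minimum was between 5.5 and 5.56. The large change in the meiosis list was SPS100, a spore wall gene, which fell by 3.84 ± 0.20.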

How the data were processed

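Total RNA of EC1118 cultures was hybridised to 1-colour Cy3 arrays. The authors deposited log2 intensities per probe, which per the submitters' processing notes were made with R 2.13.1 and limma. How they were normalized and background-corrected is not given in the sources used here. Direction follows single-dye intensity, the scale was read from the values, and centring is known only through the nearly equal array medians. Of 6271 probes, 5220 carried 1 gene symbol, 1051 none and 0 several. Of the symbols 51 were updated through RefSeq and 2 matched no current gene. Probes of a gene were averaged, giving 6248 features, 4783 with a standard name. No detection flags were used, so fold changes of dim genes may be compressed.

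One limma 3.58.1 fit in R 4.3.3 (lmFit, eBayes, two-sided, Benjamini-Hochberg over all features) took 14 samples, estimated a mean for each group, and left 10 degrees of freedom. Changes are log2 fold changes ± limma SE. The SE pools the spread of all groups, the unfed and valine-fed ones included, so it can exceed that of ammonium and batch samples. In PDC5, with an SE of 0.25, the SD was 0.14 with ammonium, 0.16 in batch and 0.66 without addition. Unfed sample 4 was at 13.13 in this gene, and the other unfed samples at 11.75 to 11.92. The number of arrays limits precision.

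The members, the gene lists and the rule for named genes were chosen with earlier results of these data known. The rule named the 12 largest changes each way without overlap between groups, the 3 largest of each of 56 lists in its main direction, up to 5 members against it, and 25 panel genes. Isoenzyme families, and other list members given as log2 fold change alone, were picked after their values were seen. The fit was tested on simulated data with few genes changed, in ammonium alone, and with independent noise. These data differ from that setting, so the test does not bear on the calls made here. Figures used Python 3.11.15 and matplotlib 3.10.9. Promoter sequences were not analysed here.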

Additional observations from a re-analysis of the deposited data

Results flagged for a closer look

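Single batch samples stood apart from the other batch samples in 24 of 351 groups of 4 values tested with Dixon's criterion, of which chance gives about 1 in 20. Of these, 17 lay in batch sample 1, on either side. It was high in AAC1 (11.14 log2 units), BNA5 (10.82), MIG3 (11.04), NDT80 (7.87), THI11 (6.98) and THI5 (7.88). It was low in ADH6 (10.46), ALD6 (11), CCC2 (8.99), FAA1 (10.86), FTR1 (9.51), ILV3 (10.24), PMA1 (13.08) and TSL1 (10.24). Its list median against the batch mean was low for nitrogen regulators (-0.05) and high for thiamine genes (0.11) and heat shock genes (0.06). Batch sample 2 was high in YEF3 (14.13). Batch sample 3 was high in BTN2 (7.21) and RPA190 (9.80) and low in HXT3 (15.43) and in the median of aryl-alcohol and aldehyde reductases (-0.02). Batch sample 4 was high in CDC45 (7.04) and DSE2 (6.38). Only the batch group was tested, so neither the groups of 3 nor the 4 unfed samples were.

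The sample with contradicting labels was in no comparison. Its THI5 value was 15 log2 units, above the batch range of 7.54 to 7.88.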

How the results depend on the processing

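Genes called between ammonium and batch numbered 3037 within slide 1, 3677 within slide 2, 4100 with slide as a block, 4036 with both groups fitted alone, 3623 with the dimmest 0.25 of genes left out, 4820 with array weights, and 3986 to 4390 when 1 sample was left out in turn. With ammonium 2 and batch 1 both left out, an alternative chosen after seeing the data, they numbered 4342. None of the 4294 calls was called in the opposite direction in any of these settings. The sign of the change turned in 7 of them within slide 1 and in 2 within slide 2. With slide as a block 4031 of them were called again, and 3975 to 4151 when 1 sample was left out in turn. Fitted with a replicate block, 4131 genes were called, and 4089 of the 4294 calls were kept. Samples of equal number deviated with correlations of -0.369, -0.069 and 0.216 over genes, so the numbers were not taken to pair the samples. The uncalled PDC1 value of 0.02 turned to -0.02 with slide as a block, -0.11 within slide 2 and -0.01 with arrays centred on genes outside the ribosome lists. It was 0.00 with the replicate block and with the second array of ammonium sample 3 alone, and -0.06 to 0.08 when 1 sample was left out in turn. TSL1 turned to -0.02 with array weights and to -0.08 without the samples that stand apart. PRE7 of the proteasome turned to 0.03 within slide 1. The cause of these turns was not tested. Of 43 lists with a median of at least 0.2 in size, 0 changed sign and 11 moved by over 1.5 times in some setting. Within a slide, 1 group holds a single sample, assumed to vary like the others.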

Other observations

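Among the 24 genes with the largest changes, the sample with contradicting labels lay outside the batch range in 24, inside the range of the ammonium samples in 9 and inside that of the valine samples in 5. In PUT4 it was at 9.35 log2 units, where ammonium samples ranged over 9.08 to 10.81, valine samples over 11.46 to 11.62 and batch samples over 14.06 to 14.18. In GND2 it was at 8.60, where ammonium samples ranged over 8.53 to 8.98, valine samples over 9.11 to 9.45 and batch samples over 13.29 to 13.47. These values assign the sample to no group.

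Among the genes just below the 12 largest increases were the wall genes TOS1 (4.67 ± 0.07) and SCW10 (4.10 ± 0.12). TOS1 was at 12.09, 11.88 and 12.11 in ammonium-fed cells, against 7.36, 7.42, 7.39 and 7.25 in batch cells. SIM1, which takes part in cell separation, was higher by 3.66 ± 0.08. Just below the largest decreases stood genes given above, such as SPS100 (-3.84) and TKL2 (-3.73). Others further down were PAI3 (-3.42 ± 0.11), an inhibitor of proteinase A, AGX1 (-3.29 ± 0.12), an alanine-glyoxylate transaminase, and XYL2 (-3.01 ± 0.08). AAH1, the adenine deaminase, was lower by 2.52 ± 0.15.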
